A study of Mus musculus with 9 samples.

Results

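The replication-dependent histone genes that lie off chromosome 13 form 3 small groups in the mouse genome, Hist2 on chromosome 3, Hist3 on chromosome 11 and Hist4 on chromosome 6. They were examined here for peaks of UBTF, the RNA polymerase I architectural factor best known for binding rDNA. The 10 genes were chosen by name from the GENCODE M1 annotation of the mm9 build, out of 22380 protein-coding genes: Hist2h2aa1, Hist2h2ab, Hist2h2ac, Hist2h2bb, Hist2h2be, Hist2h3b, Hist2h4, Hist3h2a, Hist3h2ba and Hist4h4. The rule for choosing them used gene names and no measured value.

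The peaks came from UBTF ChIP-seq of primary pre-B cells sorted from mouse bone marrow by B220, IgM and IgD on their surface. The labels give high B220 with low IgM and IgD for all stages, while the study's methods give that gate for wild type and premalignant cells and B220-positive cells negative for IgM and IgD for malignant ones, so gate and stage cannot be told apart. All animals were on a C57BL/6 background, and the Eµ-Myc transgene, in which an immunoglobulin heavy chain enhancer drives MYC in B cells, was carried as a heterozygote. Wild type (wt) and premalignant (prem) mice were 4 to 6 weeks old, and malignant (mal) mice were taken at 10 to 20 weeks, once lymphoma had arisen spontaneously. According to the study's methods, wild type and premalignant cells came from females and malignant cells from both sexes. Age and sex thus also differ with stage. The series holds 9 samples, and each of the 3 stages has 2 UBTF libraries, which the study's methods call biological replicate experiments, plus 1 input with no peak list. Individual animals were the biological replicates, according to the paper. Peak lists cannot be used to check the sorted cell type against its markers.

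Replication-dependent histone genes supply the histones that package newly copied DNA, and their transcription by RNA polymerase II rises as cells enter S phase. The genes are short, usually lack introns, and end their mRNA in a stem-loop instead of a poly(A) tail. Histones H3 and H4 form the core of the nucleosome and dimers of H2A and H2B complete it, and the 10 genes cover all of these types. UBTF is an HMG-box protein, and peaks of it have been described at some RNA polymerase II genes besides rDNA.

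The printed promoters show the members whose own genes held the highest ranked peaks within 1 kb of the start (Hist2h3b and Hist2h2aa1). They also show the stretch of 240 bp from which Hist2h2ac and Hist2h2be are transcribed in opposite directions. The others are the promoter with the most motif matches (Hist3h2ba) and the member that held none of the motifs (Hist4h4). The sequences are from the mm9 genome, 5′ to 3′ on the stated strand, with 150 bases before the annotated start and 30 from it onwards, except that the shared stretch is printed from one start to the other. Capitals mark matches on either strand of the TATA box TATAAA, the CCAAT box CCAAT and the octamer ATTTGCAT, a known element of H2B promoters.
Hist2h3b (chr3:96072427-96072606, mm9, plus strand): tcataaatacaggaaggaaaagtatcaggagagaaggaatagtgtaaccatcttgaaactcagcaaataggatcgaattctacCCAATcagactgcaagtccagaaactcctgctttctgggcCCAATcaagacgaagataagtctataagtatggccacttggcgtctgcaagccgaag
Hist2h2aa1 (chr3:96049311-96049490, mm9, plus strand): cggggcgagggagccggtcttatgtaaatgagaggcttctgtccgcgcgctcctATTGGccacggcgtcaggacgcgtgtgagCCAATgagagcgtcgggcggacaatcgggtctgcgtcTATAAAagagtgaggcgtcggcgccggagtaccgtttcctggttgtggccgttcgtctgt
Hist2h2ac to Hist2h2be (chr3:96024804-96025043, mm9, plus strand): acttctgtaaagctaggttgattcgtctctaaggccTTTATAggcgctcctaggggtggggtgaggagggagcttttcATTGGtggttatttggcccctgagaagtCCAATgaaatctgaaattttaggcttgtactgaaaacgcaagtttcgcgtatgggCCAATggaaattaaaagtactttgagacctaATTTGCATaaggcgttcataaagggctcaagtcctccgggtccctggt
Hist3h2ba (chr11:58762263-58762442, mm9, plus strand): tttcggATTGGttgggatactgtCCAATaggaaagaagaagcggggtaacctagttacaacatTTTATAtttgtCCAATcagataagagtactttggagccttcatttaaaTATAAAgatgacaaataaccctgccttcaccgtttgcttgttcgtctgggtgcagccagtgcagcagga
Hist4h4 (chr6:136752871-136753050, mm9, minus strand): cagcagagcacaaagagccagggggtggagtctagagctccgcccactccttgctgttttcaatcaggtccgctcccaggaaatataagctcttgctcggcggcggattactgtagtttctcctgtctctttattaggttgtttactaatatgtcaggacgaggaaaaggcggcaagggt
From 250 bp before to 50 bp after the start, on either strand, 9 of 10 members held CCAAT, against 37.9% of all protein-coding starts, and Hist4h4 was the exception. TATAAA was present at 5 of 10 members and at 13.4% of all starts. The octamer was present at 4 of 10 members, Hist2h2ac, Hist2h2be, Hist2h2bb and Hist3h2a, and at 1.72% of all starts. Hist2h2ac and Hist2h2be share 1 octamer between them, and likewise 1 TATAAA and all their CCAAT matches, so these are counted for both genes. CACGTG, the E-box that MYC binds, was in 0 of 10 member windows and in 7.78% of all. Matches in the printed stretches did not overlap each other. Such a match describes the letters only and says nothing of a bound factor.

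A 3′ stem-loop, searched as a stem of 6 bases opening with GG, around a loop of 4 opening with TT, within 150 bases after the stop codon, was found in 8 of 10 members. Capitals mark the stem in the loops of 1 H3, 1 H2A and both H4 genes, which show the form that marks the gene class and its difference between types.
Hist2h3b (chr3:96073058-96073073, mm9, plus strand): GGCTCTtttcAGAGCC
Hist2h2ab (chr3:96024256-96024271, mm9, plus strand): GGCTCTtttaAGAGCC
Hist2h4 (chr3:96066862-96066877, mm9, minus strand): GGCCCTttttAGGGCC
Hist4h4 (chr6:136752519-136752534, mm9, minus strand): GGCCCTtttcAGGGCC
Both H4 genes carried a stem of GGCCCT, and the other 6 loops found had GGCTCT. No match was found for Hist2h2be or for Hist2h2bb, whose annotated coding sequence is spliced.

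Every list line gives 1 summit, the point of highest signal, with a region around it and a score that the authors' peak caller assigned. A start was counted where a summit lay within 1 kb of it. The start percentile of a gene was the percent of all 22380 protein-coding starts whose best summit scored lower in the same list. Starts with no summit within 1 kb were tied at 0, and since most starts lacked one in each list, the median over all protein-coding genes was 0 in every list. A start with a summit ranked above all starts without one, so its lowest possible percentile was higher where fewer starts had a summit.

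The 6 lists differed in ways that the stages do not explain. They held 78113 to 575674 peaks, and the longest were replicate 2 of the premalignant stage and replicate 2 of the malignant stage, with 575674 and 563265 peaks. Only these 2 lists were deposited with quotation marks around their entries, and in them the summits were spread more evenly around genes. Counted over all protein-coding genes, summits from 0 to 500 bp after a start were 2.43 and 2.72 times as frequent as in the flanks at 2 to 4 kb, against 9.01 to 11.3 times in the 4 lists without quotation marks. The median GC content of 201 bp around summits was 41.3% and 41.8% in the lists with quotation marks, 42.3% in malignant replicate 1 and 46.3% to 46.8% in the other 3. Read depth is unknown from peak lists. The counts by stage are therefore given over all lists and over those without quotation marks.

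**Figure D1:**
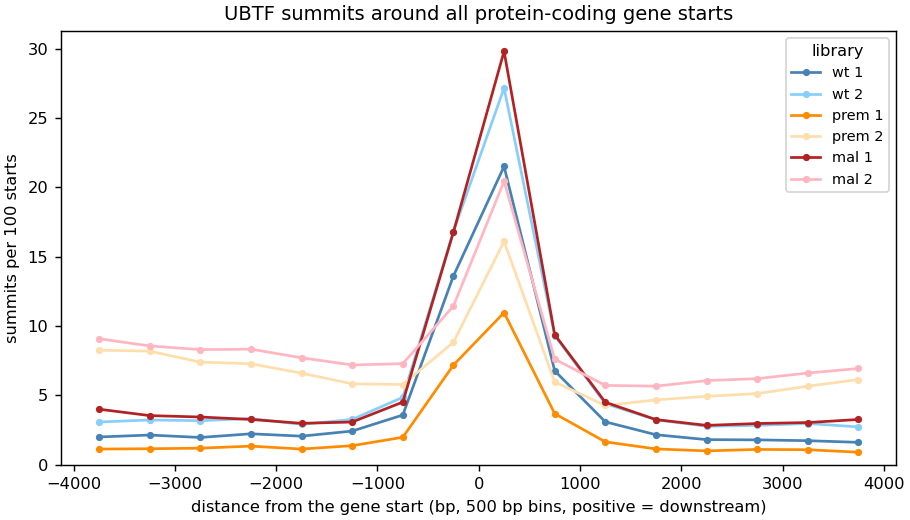
Summits per 100 protein-coding gene starts (y axis) in 500 bp bins of distance from the start (x axis, bp), 1 line per UBTF library. All 6 lines peak just downstream of the start, and premalignant and malignant replicate 2 have the highest flanks, with ratios of start to flank of 2.43 and 2.72 against 9.01 or more in the other lists.

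At full list length, UBTF summits lay at most of the histone genes in 4 of the 6 lists and at almost none of them in the other 2. A summit within 1 kb was present at 8 of 10 members in wild type replicate 1, where 32.6% of all protein-coding starts had one, and at 8 of 10 in wild type replicate 2, where 40.7% had one. Premalignant replicate 1, the shortest list, held one at 8 of 10 members and at 19.3% of all starts. Malignant replicate 1 held one at 10 of 10 members and at 43.0% of all starts. In premalignant replicate 2, a summit was present at 1 of 10 members and at 28.2% of all starts, and in malignant replicate 2 at 0 of 10 members and at 34.8% of all. The histone genes were thus well above the background share in 4 lists and below it in the 2 longest lists.

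**Figure D2:**
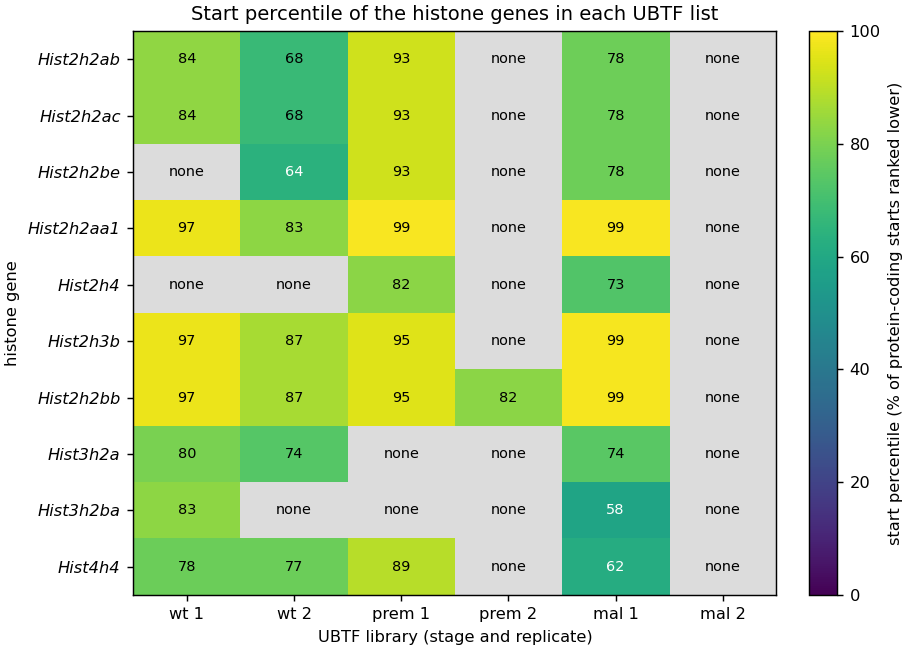
Start percentile (colour and printed number, percent of protein-coding starts ranked lower) of each histone gene (rows) in each UBTF library (columns), with grey cells marked none where no summit lay within 1 kb. The columns of premalignant and malignant replicate 2 are grey but for Hist2h2bb, which reached 82.5 in premalignant replicate 2.

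Counted by stage, 7 of 10 members had a summit in both wild type lists, against 26.5% of all starts. In both premalignant lists it was 1 of 10, against 11.1%, and in both malignant lists 0 of 10, against 23.4%. That 1 member, Hist2h2bb, had different summits in the 2 premalignant lists, at -845 bp and at 878 bp from its start (negative is upstream). Over the 4 lists without quotation marks, 6 of 10 members had a summit in every list, Hist2h2ab, Hist2h2ac, Hist2h2aa1, Hist2h3b, Hist2h2bb and Hist4h4, against 13.0% of all starts. Over all 6 lists it was 0 of 10, against 8.11% of all starts.

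The H3 gene Hist2h3b (ENSMUSG00000074403.2, chr3:96072577-96073064, plus strand) ranked high in each list that held it. Its start percentile was 97.2 and 86.9 in wild type replicates 1 and 2, 95.3 in premalignant replicate 1 and 98.8 in malignant replicate 1, and it had no summit within 1 kb in premalignant or malignant replicate 2. Its peak was number 17468 of 116180, 60554 of 184609, 21850 of 78113 and 5872 of 279068 in the 4 lists. The summits fell 121, 139, 222 and 139 bp into the gene, all in its coding sequence.

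Among the H4 genes, Hist4h4 (ENSMUSG00000068851.2, chr6:136752589-136752900, minus strand) stood alone on chromosome 6, with H2afj as its nearest neighbour, 3869 bp away from start to start. Its start percentile was 77.7 and 77.4 in wild type, 89.4 in premalignant replicate 1 and 62.0 in malignant replicate 1, with none within 1 kb in both lists with quotation marks. The 4 best summits lay 178 to 214 bp after the start, in the coding sequence, the tightest grouping among members found in 4 or more lists. Farther downstream, summits were listed at 2447 bp in premalignant replicate 2, 2369 bp in malignant replicate 2 and 2500 bp in malignant replicate 1, where it ranked higher (peak number 86210 of 279068) than the summit near the start (228762). Hist2h4 (ENSMUSG00000091405.1, chr3:96065627-96067234, minus strand) was one of the weaker members: it had no summit in either wild type list, a start percentile of 82.5 in premalignant replicate 1 and one of 72.7 in malignant replicate 1. These summits were 285 and 187 bp into the gene, at peak numbers 68163 of 78113 and 143445 of 279068.

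Of the H2A genes, Hist2h2aa1 (ENSMUSG00000063954.6, chr3:96049461-96050038, plus strand) gave the highest single value, a start percentile of 99.2 in malignant replicate 1, at peak number 4036 of 279068. It stood at 97.0 and 82.8 in wild type replicates 1 and 2 and at 98.9 in premalignant replicate 1. The summits lay 172, 155, 98 and 64 bp into the gene in wild type 1, wild type 2, premalignant 1 and malignant 1. Hist2h2aa1 is 1 of 2 identical copies: all 578 bases of the gene are the same in Hist2h2aa2, which is not among the 10 genes, and the identity runs for 642 bases from the start. Only 43.5% of the 50-base stretches within 1 kb of the Hist2h2aa1 start occur once in mm9, so over much of it a single read of 50 bases matches more than 1 place. Whether its paired read would place it was not tested. Hist2h2aa2 had start percentiles of 97.7, 89.1, 98.5 and 99.1 in the same 4 lists and none in the other 2. The H3 gene Hist2h3c1 starts 16 bp after Hist2h2aa1 and has the same best summits.

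The lists with quotation marks did hold peaks over this duplicated block, but their summits fell beyond the 1 kb limit. In premalignant replicate 2 the summit was 1121 bp after the Hist2h2aa1 start (peak number 90034 of 575674), and in malignant replicate 2 it was 1246 bp after it (48659 of 563265). Malignant replicate 2 held a second summit 1250 bp after the Hist2h2aa2 start (51761 of 563265), while premalignant replicate 2 held none within 3 kb of that start. The lists without quotation marks also had summits beyond 1 kb, of which the best was at 1060 bp in wt 1 (peak number 39046), 1444 bp in wt 2 (peak number 14712), 1500 bp in prem 1 (4327) and 1469 bp in mal 1 (4410). In wt 2 and prem 1 these ranked above the summit nearer the start, and in wt 1 and mal 1 below it.

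Hist2h2ab (ENSMUSG00000063689.3, chr3:96023839-96024231, plus strand) and Hist2h2ac (ENSMUSG00000068855.3, chr3:96024284-96024803, minus strand) are H2A genes that converge. They share their best summit in every list and so have the same start percentiles: 83.5 and 67.8 in wild type, 92.8 in premalignant replicate 1, 78.0 in malignant replicate 1 and none in the lists with quotation marks. The peak numbers were 57496 of 116180 and 125960 of 184609 in wild type. In premalignant and malignant replicate 1 they were 29727 of 78113 and 115553 of 279068. The shared summit was not at one place. In both wild type lists it lay in the coding sequence of Hist2h2ab, 29 and 31 bp after its start, and in premalignant and malignant replicate 1 in that of Hist2h2ac, 104 and 270 bp after its start. Weaker summits at the other gene were listed in wt 2, prem 1 and mal 1, at 622, 57 and -14 bp from the Hist2h2ab start.

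Hist3h2a (ENSMUSG00000078851.3, chr11:58768187-58770176, plus strand), the H2A gene of the Hist3 group, starts at the same base as Trim17, so the summits cannot be given to one of them. It had start percentiles of 80.0 and 73.8 in wild type and 74.2 in malignant replicate 1, and none in either premalignant list. Both wild type summits lay in the Hist3h2a coding sequence, 294 and 435 bp after the start, but that of malignant replicate 1 lay upstream, at -604 bp, in an exon of the pseudogene Hist3h2bb-ps.

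Of the 3 H2B genes, only Hist3h2ba had a best summit in its own coding sequence. Hist2h2bb (ENSMUSG00000050936.3, chr3:96073644-96082924, plus strand) took the values of Hist2h3b in the 4 lists without quotation marks, since the best summit within 1 kb was that inside Hist2h3b, at -845 to -946 bp from the Hist2h2bb start. In premalignant replicate 2 the best summit within 1 kb lay in its own intron, with a start percentile of 82.5 and peak number 251775 of 575674. Malignant replicate 1 also listed a weaker summit in the gene, at 690 bp (peak number 252785 of 279068). Only 64.0% of 50-base stretches around this start are unique in mm9, and the most frequent occurs 3776 times. Hist2h2be (ENSMUSG00000068854.6, chr3:96025044-96027661, plus strand) had 64.0 in wild type replicate 2, 92.8 in premalignant replicate 1 and 78.0 in malignant replicate 1, all from summits at -345 to -583 bp, in the coding sequence of Hist2h2ac. That of wild type replicate 2 was peak number 146566 of 184609. In wild type replicate 1 the nearest summit was at -1176 bp, just past the limit, and the gene had none. Hist3h2ba (ENSMUSG00000056895.2, chr11:58762413-58763032, plus strand) had summits of its own, 321 bp into the gene in wild type replicate 1 and 301 bp in malignant replicate 1, with start percentiles of 82.9 and 58.2, and none in the other 4 lists. These were peak numbers 59880 of 116180 and 259845 of 279068, the latter among the weakest peaks of its list.

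**Figure D3:**
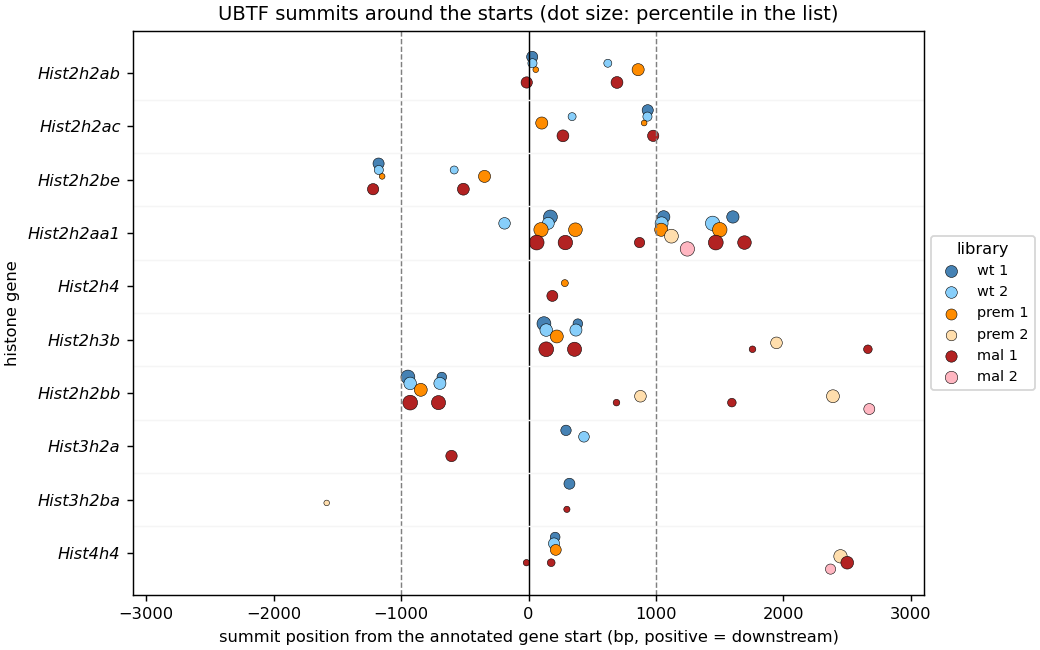
All UBTF summits within 3 kb of each histone gene start (x axis, bp from the start, positive downstream), by gene (rows) and library (colour), with larger dots for summits of higher percentile in their list. The dashed lines mark 1 kb. The best summits within 1 kb lie 178 to 214 bp after the start for Hist4h4 and 121 to 222 bp after it for Hist2h3b, further summits of both lie beyond 1 kb, and those counted for Hist2h2be lie before the start.

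Most best summits lay inside a histone gene, though for Hist2h2be, and mostly for Hist2h2bb, in a neighbouring one. Genes that share a summit counted once, the 4 lists without quotation marks and premalignant replicate 2 held 25 best member summits, and 23 of these lay in the coding sequence of a histone gene. Of the other 2, 1 lay in the exon of Hist3h2bb-ps and 1 in the Hist2h2bb intron, and 0 lay outside a histone gene. Summits were also most frequent from 0 to 500 bp downstream over all protein-coding starts in each list, and the share of other genes with a best summit in coding sequence was not measured. Because members sit next to each other, the 8, 8, 8, 1 and 10 members with a summit in wild type 1 and 2, premalignant 1 and 2 and malignant 1 rest on 6, 6, 5, 1 and 7 summits. The annotated models of Hist2h2ab and Hist4h4 begin at the start codon, so distances from their starts are measured from there.

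Over the whole Hist2 cluster of 64806 bp, 9, 13, 13 and 19 summits were listed in wild type 1, wild type 2, premalignant 1 and malignant 1, and 8, 10, 12 and 16 of them lay inside a histone gene. Premalignant and malignant replicate 2 listed 5 each, with 5 and 4 inside a gene, of which 4 and 2 were in the long Hist2h2bb model. None of these peaks covered the start of a member.

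**Figure D4:**
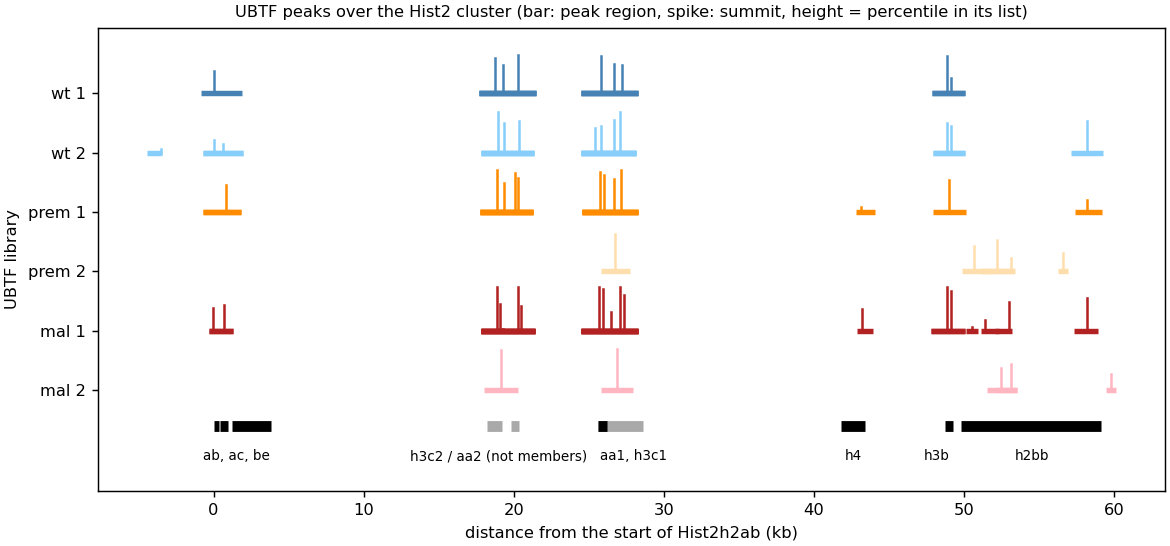
UBTF peaks over the Hist2 cluster (x axis, kb from the start of Hist2h2ab) in each library (rows), where bars are peak regions and spikes mark summits, their height being the percentile in the list. Gene models are below, members in black and other histone genes in grey, with the Hist2h prefix left out. In the 4 lists without quotation marks peaks sit over ab and ac, both duplicated blocks and h3b. In the other 2 there are 5 summits each. Those of premalignant replicate 2 lie at a single duplicated block and in the Hist2h2bb model. Those of malignant replicate 2 lie at both duplicated blocks, in the Hist2h2bb model and just past it.

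The stages were compared by the start percentile of each member, which asks whether UBTF at these genes moved as Eµ-Myc cells progressed. An exact permutation test of 2 libraries against 2 cannot give a two-sided p below 0.333, so no call could be made. The mean start percentile was lower in premalignant than in wild type cells at 8 of 10 members, with a median difference of -31.0, lower in malignant than in premalignant cells at 6 of 10, with a median of -6.16, and lower in malignant than in wild type cells at 8 of 10, with a median of -38.2. The spread between the 2 libraries of a stage was mostly larger than these differences: Hist2h2aa1 had a mean of 89.9 ± 10.0 (SD, n = 2) for wild type, 49.5 ± 70.0 for premalignant and 49.6 ± 70.2 for malignant cells. The difference exceeded the pooled SD at 1, 0 and 2 members in the 3 comparisons. The share of all protein-coding starts with a lower mean, or with a difference above the pooled SD, was not measured.

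Stages whose libraries did not overlap were rare. From wild type to premalignant cells this held for 1 of 10 members, Hist3h2a, at 76.9 ± 4.39 and at 0 in both premalignant lists (exact permutation p = 0.333); over all starts both premalignant values were lower at 9.84% and higher at 3.40%. From wild type to malignant cells it held for 1 member, Hist4h4, at 77.5 ± 0.171 against 62.0 and 0 (exact permutation p = 0.333), where 8.16% of all starts were lower in both malignant lists and 6.87% higher. Between premalignant and malignant cells it held for 0 members, beside 2.92% of all starts lower and 5.74% higher in malignant cells.

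Within the 4 lists without quotation marks the median differences from wild type were positive, the opposite of those over all lists. Premalignant replicate 1 was above the mean of both wild type lists at 8 of 10 members, with a median difference of 10.5. These were the 8 members with a summit in that list. It had a summit at 19.3% of all starts, against a mean of 36.7% in wild type, which sets a higher lowest percentile. How far this alone raised the members was not tested. Malignant replicate 1 was above the wild type mean at 8 of 10, with a median of 6.76. Between malignant and premalignant replicate 1 the median was -4.74, with 5 members higher and 5 lower, the same direction as over all lists. Single genes differed more where a list lacked them, from -76.9 at Hist3h2a to 82.5 at Hist2h4 for premalignant replicate 1 against wild type. Premalignant and malignant cells have 1 list of each format and wild type has none with quotation marks, so a lower mean in the later stages cannot be told apart from the lists with quotation marks. The narrowest peak of a list gave a second division, 240 to 260 bp in wild type 1, wild type 2 and premalignant 1 and 670 to 800 bp in the other 3. Among the former, premalignant minus wild type is the same comparison as above, and among the latter, malignant minus premalignant had a median of 38.1 and rested on malignant replicate 1. Over all protein-coding genes the median difference was 0 in every one of these comparisons. The share of all starts that were higher or lower was not measured.

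At the histone genes of the Hist1 cluster on chromosome 13, 46, 49, 46 and 51 of 55 genes had a summit in wild type 1, wild type 2, premalignant 1 and malignant 1, and 11 and 20 in premalignant and malignant replicate 2. In those last 2 lists this was 20.0% and 36.4% of Hist1, beside 28.2% and 34.8% of all starts, so that Hist1 was near the background in malignant replicate 2. Hist1 stood higher in the order, with median start percentiles of 96.8, 98.0, 99.1 and 99.2 in the first 4, against 83.2, 70.8, 92.8 and 78.0 over the 10 members. The replication-independent variants, which are made throughout the cell cycle (10 of 12 genes annotated, among them H2afx and H3f3a), had a summit at 6, 7, 2 and 8 of 10 in those 4 lists and at 7 and 6 in premalignant and malignant replicate 2. For the factors that transcribe and process histone mRNA, among them Npat, the coactivator of these genes, and Slbp, which binds the stem-loop, it was 7, 13, 6 and 11 of 14, and 8 in each list with quotation marks. These counts were not tested against each other.

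**Figure D5:**
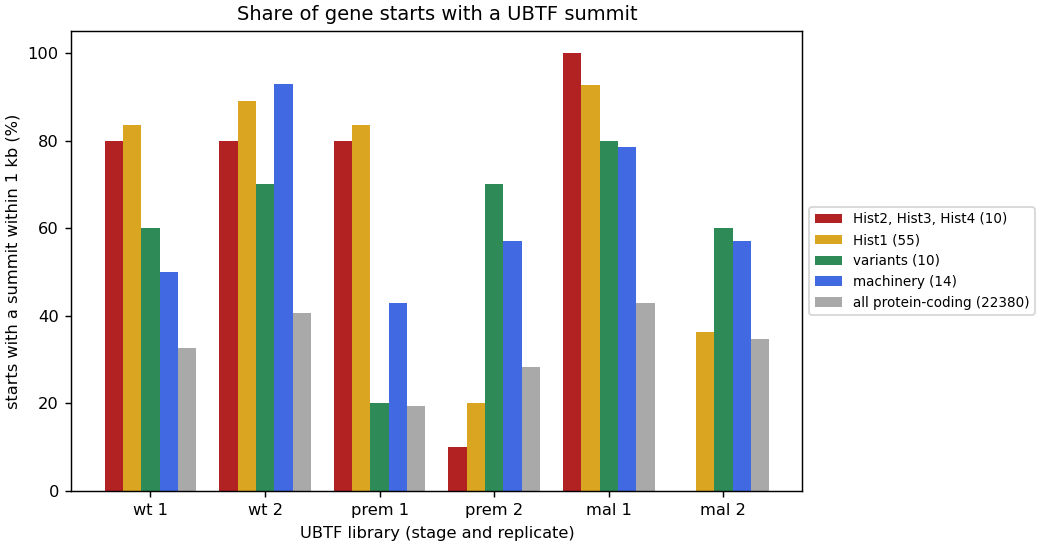
Share of gene starts with a UBTF summit within 1 kb (y axis, percent) in each UBTF library (x axis), for the 10 histone genes of Hist2, Hist3 and Hist4, the Hist1 genes, the variants, the machinery and all protein-coding genes (numbers of genes in parentheses). In premalignant and malignant replicate 2 the 10 histone genes are at 10% and 0% while variants are at 70% and 60%.

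GC content moved with the chance that a start had a summit and is given beside the counts. Within 500 bp of the start, 7 of the 10 members were in the second quartile of all protein-coding starts, from 47.3% to 54.7% GC, Hist2h2ac and Hist2h2be were in the third, and Hist2h2aa1 was in the highest with 62.7%. In the second quartile, 17.0%, 24.0%, 8.89% and 24.9% of all starts had a summit in wild type 1, wild type 2, premalignant 1 and malignant 1, and 6, 5, 5 and 7 of the 7 members had one. For premalignant and malignant replicate 2 the share was 15.0% and 19.1% of that quartile, with 1 and 0 of the 7 members. The part of GC content in these counts was not tested.

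Genes outside the histone family had start percentiles close to those of a member over the 6 lists. Hist2h2bb had the highest mean start percentile of the members, 76.8 over 6 lists, and the protein-coding genes most like it, by the mean absolute difference over the 6 lists, were Zbtb7a at 1.98, Rcor2 at 2.66 and Ddost at 2.80 percentile points. All had a start percentile of 0 in malignant replicate 2 and of 78.4, 81.4 and 86.0 in premalignant replicate 2. Zbtb7a and Rcor2 encode transcriptional repressor proteins and Ddost a subunit of the oligosaccharyltransferase.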

How the data were processed

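UBTF ChIP-seq libraries of pre-B cells, 2 for each of the 3 stages, were analysed as deposited peak lists, while the 3 inputs, for which no peak list was given, were not analysed here. Per the study's methods, paired 50-bp reads were aligned with bowtie2 to mm9 plus 1 rDNA repeat, Picard discarded duplicates, and SPP called peaks. The submitters' processing notes name CASAVA 1.8.2, Bowtie, Picard 1.110 and mm9. The deposited signal column is the peak caller's score, in units not scaled between libraries, and was used only to rank peaks within a list. The deposited q-value column is a false discovery rate on a linear scale, and the p-values are all a placeholder. The lists precede the authors' test of reproducibility between replicates. Depth is unknown, so no counting interval can be given.

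Quotation marks, line ends and chromosome names were made uniform. Positions fit mm9 except that 49 peak regions run up to 1021 bp past a chromosome end, none of them near a member. Gene starts are the 5′ ends of GENCODE M1 protein-coding genes, and the best summit by score within 1 kb was taken for each. Uniqueness is the share of 50-base stretches within 1 kb that occur once in mm9 on either strand. Stages were compared with two-sided exact permutation tests. Calculations used Python 3.11.15 and numpy 2.4.6, plots matplotlib 3.10.9, and the search for summits was checked on simulated lists. All 10 members are named, other genes by list, neighbours within 100 kb, and the 3 genes of most similar pattern. The members and lists were chosen with earlier results of these data known. The alternatives were other distances, the peak region in place of the summit, equal list lengths, a stricter false discovery rate, transcript starts, each replicate left out, replicate blocks and, chosen after seeing the data, the 4 lists without quotation marks.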

Additional observations from a re-analysis of the deposited data

How the results depend on the processing

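Of 58 alternative values of counts and medians, 47 stayed within the spread between replicates (medians) or 1.5 times (counts) and 11 moved. Among the 58, 3 changed sign. The spread was 39.5 to 60.6 points for the median differences, so a change from -31.0 to 10.5 counted as within it. Staying within it therefore says little about stability. Of 300 values for single genes 14 moved and 39 changed sign, some of them within that spread. No test could call any of them. With summits within 500 bp the number of members in both premalignant lists was 0 (8.26% of all starts), and within 2 kb it was 3 (14.6%), with 1 in both malignant lists (31.1%). It was 0 in premalignant cells (9.73%) when the peak region had to cover the start. Shortening all lists to 78113 peaks left 3 members in both wild type lists (13.5%) and 0 in both premalignant lists (3.91%). Counted by list, it took wild type replicate 2 from 8 to 3 members (18.7%) and malignant replicate 1 from 10 to 3 (16.5%). The median start percentile of members was then 0 in these lists. Wild type and premalignant replicate 1 stayed at 8 (23.0% and 19.3%). Leaving out a replicate gave 1 to 8 members in premalignant and 0 to 10 in malignant cells, the high values without replicate 2 (19.3% and 43.0% of all starts), and 8 in wild type cells either way, against 7 in both wild type lists. The median difference then ran from -67.8 to 5.62 (premalignant minus wild type), -70.8 to -1.97 (malignant minus wild type) and -4.74 to 0 (malignant minus premalignant). With only the 4 lists without quotation marks, 8 members had a summit in premalignant and 10 in malignant cells, and the median differences from wild type were 10.5 and 6.76, of opposite sign to those over all lists. Whether the replicate numbers pair the samples could not be decided. The differences between replicates correlated across starts at r = 0.0641 between wild type and premalignant and 0.0557 between wild type and malignant cells. Between premalignant and malignant cells r was 0.337. There replicate 2 is the list with quotation marks in both stages, so pairing and list format cannot be told apart. With replicate number as a block the medians were -31.0, -6.16 and -38.2, as without it, and the smallest paired p that 2 pairs allow is 0.5. Every stage has 1 library in each block, so the block could not change these medians. Ranking outside rDNA, which left out only 35 to 87 peaks per list, moved the median peak percentile of members from 58.59 to 58.60. Depth, which limits which weak peaks are called, is unknown.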
